A study of Mus musculus with 70 samples.

Results

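The genes described here are 9 that carry out or hold back lytic cell death, the forms of death in which the plasma membrane breaks open: Ripk1, Ripk3, Mlkl, Zbp1, Casp8, Fadd, Gsdmd, Gsdme and Ninj1. They were chosen by symbol, and all 9 were found, each on a single line, among 55367 gene symbols in the count tables. RNA was counted in 70 libraries, each of the CD45+ or the CD45- cells that were sorted by flow cytometry from a B16F10 tumor, a mouse melanoma line injected subcutaneously on both sides of each C57BL/6 mouse. The mice were of both sexes and 6 to 8 weeks old. A single flank received sham ablation or partial histotripsy, which breaks tissue mechanically with focused ultrasound. Control tumors (CON) came from sham-treated mice, histotripsy-treated tumors (HT) were ablated, and histotripsy-abscopal tumors (ABS) were the untreated tumors opposite an ablated tumor.

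Tumors were collected 3 or 7 days after ablation. On day 3 there were 4 CON, 7 HT and 7 ABS libraries of CD45- cells and 4, 6 and 7 of CD45+ cells. On day 7 there were 11 CON, 3 HT and 4 ABS libraries of CD45- cells and 10, 3 and 4 of CD45+ cells. Groups were not randomized, ablation was partial, so that HT libraries mix cells from ablated and intact zones, and neither sex nor batch is known for a library. The labels do not say that replicates came from separate mice. An HT and an ABS tumor can come from 1 mouse, and a CD45+ and a CD45- library from 1 tumor. The fits treated all libraries as independent, so p-values measure the spread between these libraries. QuantSeq counts tags at the poly(A) end of transcripts after collapsing of molecular identifiers, with 887798 to 3820705 counts per library, and levels are given as CPM, the count as a share of the library's total after scaling by TMM factors. Ptprc, which encodes CD45, had at most 3 counts in any CD45- library and at least 929 in every CD45+ library. The summed CPM of 7 melanoma genes was 22264 to 34402 in CD45- libraries and 104 to 2517 in CD45+ libraries, the highest CD45+ value being in a day 3 ABS library.

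In necroptosis, RIPK1 or the nucleic acid sensor ZBP1 engages RIPK3, which phosphorylates MLKL, and MLKL then permeabilizes the plasma membrane. FADD and caspase-8 form a complex that starts apoptosis downstream of death receptors and cleaves RIPK1 and RIPK3, which holds necroptosis back. In pyroptosis, inflammatory caspases cleave gasdermin D, and caspase-3 can cleave gasdermin E, to free fragments that form membrane pores, and NINJ1 oligomerizes late in lytic death to rupture the membrane. These proteins are controlled largely by cleavage, phosphorylation and oligomerization, none of which RNA counts measure.

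Promoter sequence was available for 7 of the 9 genes, in 8 windows since Ripk1 has a pair of listed starts, and Zbp1 and Gsdmd had no entry. The 250 bases before the start are shown for Ripk3, the gene with the largest difference between fractions, and for Ninj1, the gene that differed after treatment. They are RefSeq sequences of GRCm38.p6, 5′ to 3′ on the gene's strand, at chr14:55788858-55789107 (minus strand) for Ripk3 and chr13:49187279-49187528 (plus strand) for Ninj1, with CpG dinucleotides in capitals.
Ripk3: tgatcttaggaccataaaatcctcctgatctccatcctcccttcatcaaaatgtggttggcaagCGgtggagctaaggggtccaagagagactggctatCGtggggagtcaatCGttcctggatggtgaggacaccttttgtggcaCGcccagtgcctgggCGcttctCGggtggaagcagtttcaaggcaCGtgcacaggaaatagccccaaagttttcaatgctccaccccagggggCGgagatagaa
Ninj1: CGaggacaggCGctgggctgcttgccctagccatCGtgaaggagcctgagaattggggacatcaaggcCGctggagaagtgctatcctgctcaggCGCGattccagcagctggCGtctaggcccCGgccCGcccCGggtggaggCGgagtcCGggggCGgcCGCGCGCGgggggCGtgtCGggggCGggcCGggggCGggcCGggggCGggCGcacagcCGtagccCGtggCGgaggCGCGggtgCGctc
The Ninj1 window held 31 CpG dinucleotides and the Ripk3 window 8, against a median of 6 over 32851 promoter windows of this length. As many or fewer CpG dinucleotides were found in 95.4% of those windows for Ninj1 and in 59.7% for Ripk3. GAAANNGAA, a core of the interferon-stimulated response element searched on both strands, was in none of the 8 windows and in 7.13% of all windows. The STAT-binding motif TTCNNNGAA, the same on both strands, was found 2 times in the window of the downstream Ripk1 start, in no other window of these genes and in 7.02% of all windows.

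The question first asked was how the machinery is divided between tumor-infiltrating leukocytes and the CD45- cells. All 9 genes differed between the fractions on both days, with 6 higher in CD45+ cells and 3 higher in CD45- cells (edgeR quasi-likelihood test, adjusted p under 0.05). So did 83.7% of all genes tested on day 3, of which 43.1% were higher and 40.6% lower in CD45+ cells as shares of all genes, and 82.8% on day 7, 42.5% higher and 40.3% lower, so that passing the test does not set these genes apart. The share of all genes without overlap between the fractions was not computed, so a lack of overlap does not set a gene apart either. The sizes and directions differed between the genes, and each is taken in the order of its role below.

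**Figure D1:**
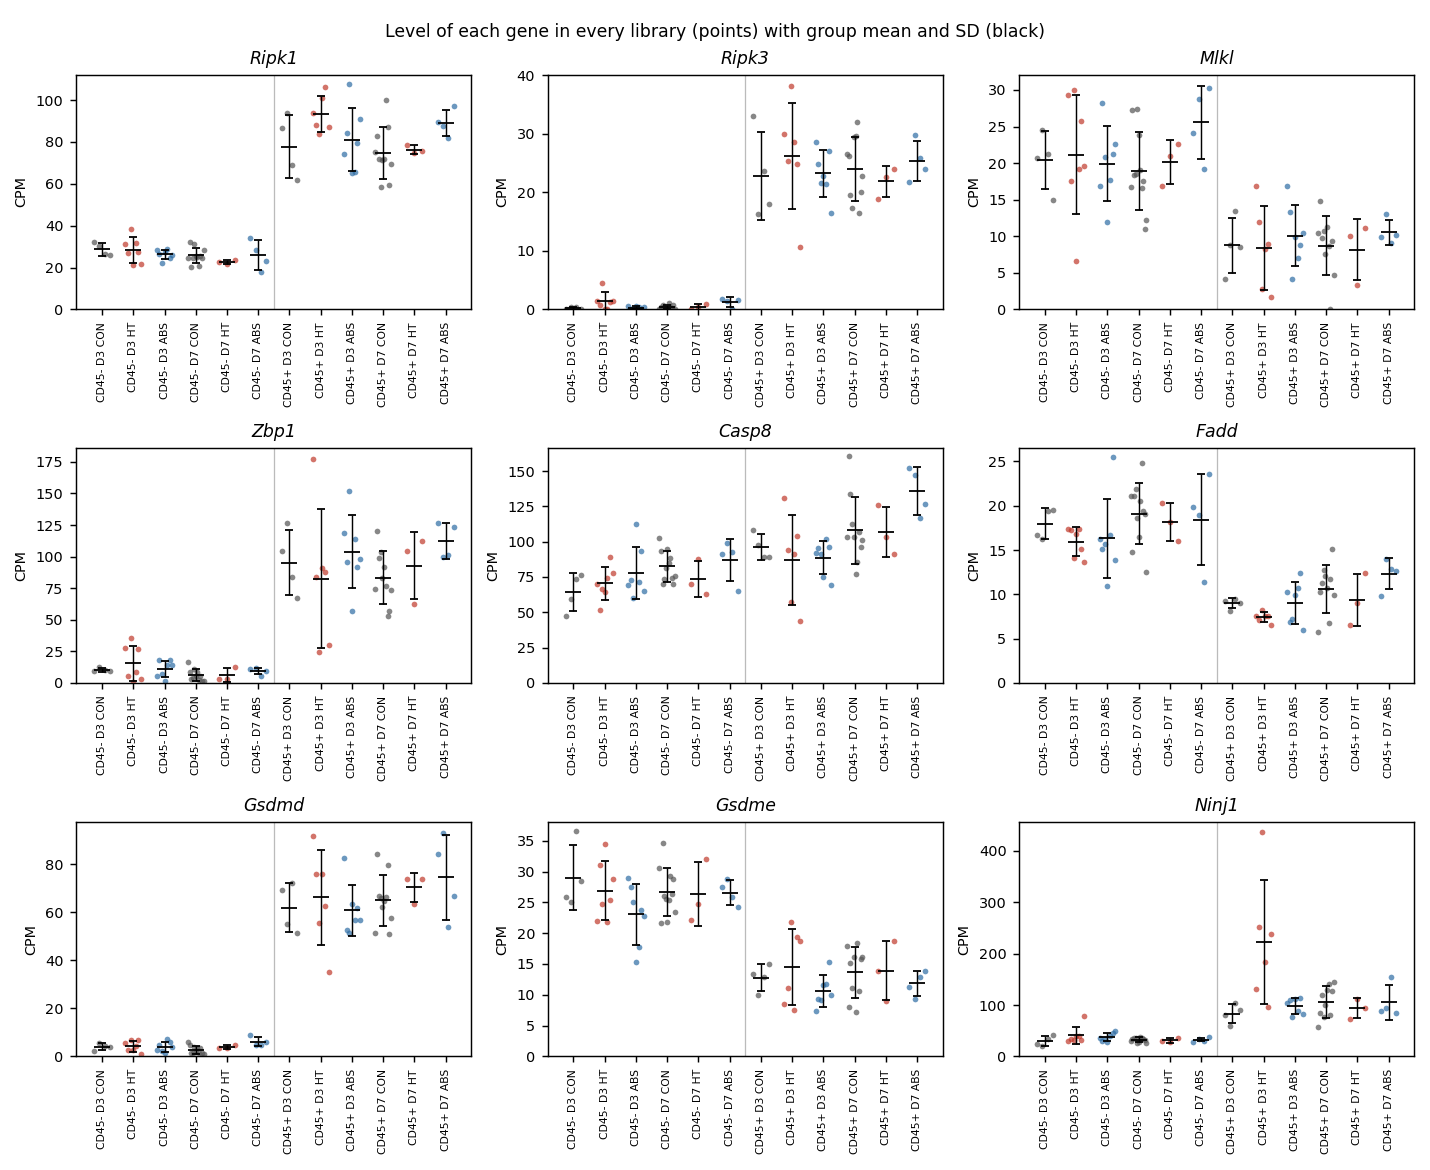
Level of each of the 9 genes in CPM (linear axes from 0) in every library, by fraction, day and group, with the group mean and SD in black. Ripk3 and Gsdmd sit near 0 in CD45- libraries, Mlkl, Fadd and Gsdme are lower in CD45+ libraries, and Ninj1 reaches 436 CPM in a day 3 HT library of CD45+ cells.

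Ripk3, the kinase that activates MLKL, was near 0 in CD45- cells and present in every CD45+ library. Of 36 CD45- libraries 13 had no Ripk3 count, and all 36 together had 59 counts, of which 12 were in HT replicate 3 of day 3. CD45+ libraries had between 13 and 66 counts each, and group means of 21.9 to 26.3 CPM. The log2 fold change of CD45+ over CD45- cells, averaged over CON, HT and ABS, was 5.56 ± 0.30 (SE) on day 3 and 5.20 ± 0.24 on day 7, and the groups did not overlap in any of 6 comparisons of a day and treatment. Because the CD45- counts are so few, these fold changes are uncertain at their upper end.

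Mlkl, the effector that RIPK3 phosphorylates, ran the other way. Its group means were 19.0 to 25.6 CPM in CD45- cells and 8.18 to 10.5 CPM in CD45+ cells, a log2 fold change of -1.16 ± 0.20 (SE) on day 3 and -1.19 ± 0.18 on day 7. The fractions overlapped in 3 of 6 comparisons of a day and treatment. Ripk1, the upstream kinase, had group means of 22.6 to 28.7 CPM in CD45- cells and 74.8 to 93.3 CPM in CD45+ cells, without overlap in any comparison, and log2 fold changes of 1.58 ± 0.08 (SE) on day 3 and 1.67 ± 0.09 on day 7. Zbp1, an interferon-induced sensor, had 6.13 to 15.5 CPM in CD45- cells and 82.5 to 113 CPM in CD45+ cells, and log2 fold changes of 2.94 ± 0.29 (SE) and 3.80 ± 0.21. Its fractions did not overlap in 5 of 6 comparisons.

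The brake on necroptosis was not divided in 1 direction. Casp8 had the smallest difference of the 9, a log2 fold change of 0.35 ± 0.11 (SE, adjusted p = 0.00429) on day 3 and 0.50 ± 0.09 on day 7. Scaled by library totals, the day 3 value was 0.07 with an adjusted p of 0.615, so the call and the size for Casp8 on day 3 rest on the scaling. Fadd, the adaptor that recruits caspase-8, was lower in CD45+ cells with log2 fold changes of -0.99 ± 0.11 (SE) on day 3 and -0.81 ± 0.14 on day 7, with group means of 7.41 to 12.3 CPM there and 15.9 to 19.1 CPM in CD45- cells. For Casp8 and for Fadd the fractions did not overlap in 3 of 6 comparisons of a day and treatment. Fadd overlaps an annotated antisense gene, Faddos, that covers its 3′ end, and the strand setting of the counting is not given in the sources used here, so its counts may include reads of that gene.

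The gasdermins also parted. Gsdmd, the pore-former cleaved by inflammatory caspases, had group means of 60.8 to 74.6 CPM in CD45+ cells and 2.78 to 6.14 CPM in CD45- cells, with log2 fold changes of 3.88 ± 0.17 (SE) and 4.10 ± 0.14 and no overlap in any comparison. Gsdme, the substrate of caspase-3, had 10.6 to 14.5 CPM in CD45+ cells and 23.0 to 29.0 CPM in CD45- cells, with log2 fold changes of -1.07 ± 0.13 (SE) and -0.99 ± 0.12. Its fractions did not overlap in 5 of 6 comparisons. Mpp6 covers the 3′ end of Gsdme on the opposite strand, with the same limit. Ninj1, the executor of membrane rupture, was higher in CD45+ cells with log2 fold changes of 1.75 ± 0.16 (SE) and 1.64 ± 0.12, without overlap in any comparison.

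**Figure D2:**
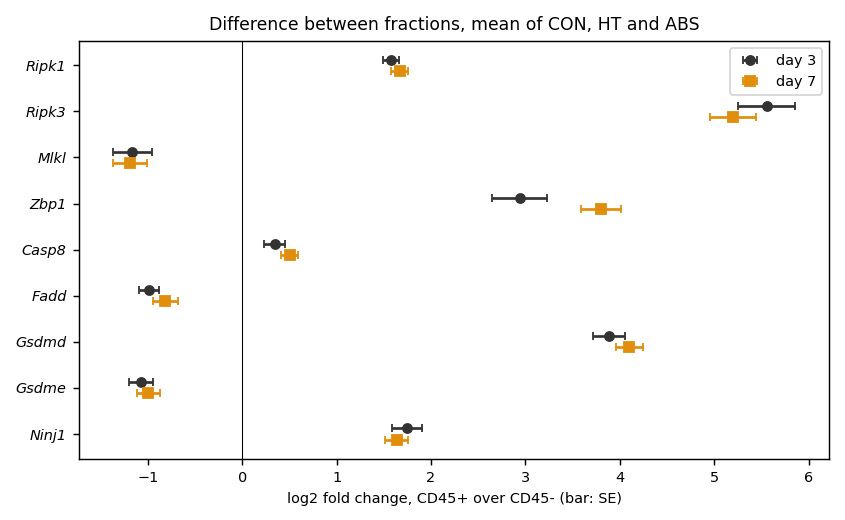
Log2 fold change of CD45+ over CD45- cells for each gene on day 3 and day 7, averaged over CON, HT and ABS, with SE bars. Ripk3 (5.56 and 5.20), Gsdmd and Zbp1 lie farthest to the right, and Mlkl, Fadd and Gsdme lie to the left of 0 on both days.

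Upstream genes of the pathway lists named here were also mostly higher in CD45+ cells. On day 3, all 15 tested inflammasome and protease genes, 19 of 21 genes of the TNF receptor complex and 15 of 16 interferon-response genes were higher. Of all genes tested 43.1% were higher and 40.6% lower. The lists' median log2 fold changes were 4.63, 1.14 and 2.16, against 0.04 over all genes tested. A gene could enter this test through CD45+ cells alone. Within CD45- cells of day 3, 7 genes of the inflammasome list could be tested. For the rest of that list, being higher in CD45+ cells was largely set by the filter. Of 15 tested ESCRT genes, which repair membrane pores, 6 were higher and 6 lower, near the shares over all genes, with a median of -0.0028.

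The comparison of treated with control tumors asked whether ablation changes this machinery. Of 102 tests of these genes in the 12 comparisons of CON, HT and ABS within a fraction and day, 2 passed, and both were Ninj1 in CD45+ cells on day 3. Over all genes tested, between 0% and 7.79% passed in those comparisons. The other 100 log2 fold changes ran from -0.66, for Zbp1 in CD45- cells of HT over ABS on day 7, to 1.17, for Gsdmd in CD45- cells of ABS over CON on day 7. With a library left out, this Zbp1 value ranged from -1.56 to -0.30 and this Gsdmd value from 0.92 to 1.29.

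Ninj1 in CD45+ cells on day 3 was 131, 251, 436, 184, 96.6 and 238 CPM in the 6 HT libraries, 80.5, 58.3, 104 and 91.0 CPM in the 4 CON libraries and 77.0 to 114 CPM in the 7 ABS libraries. All HT libraries but replicate 5 lay above every CON and ABS library. The mean was 223 ± 120 (SD, n = 6) in HT, 83.4 ± 19.3 (n = 4) in CON and 98.3 ± 15.2 (n = 7) in ABS. The log2 fold change was 1.42 ± 0.30 (SE) for HT over CON, with an adjusted p of 0.0058 in edgeR's quasi-likelihood test, where 7.79% of all genes tested passed. It was 1.17 ± 0.24 for HT over ABS, with an adjusted p of 0.0058, where 5.44% passed, and 0.25 ± 0.28 for ABS over CON, which did not pass (adjusted p = 0.845). HT over CON and HT over ABS share the HT libraries and are not independent.

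Neutrophil markers moved with Ninj1. The summed level of 7 neutrophil genes, of which 4 of 6 tested were higher in HT over CON, was 2268, 9693, 40298, 5126, 1398 and 5518 CPM in the HT libraries in the same order, 403 to 2928 CPM in CON and 937 to 3037 CPM in ABS, and none of the 7 was at 0 in any of these groups. The 6 HT libraries had the same order by Ninj1 and by neutrophil genes, with Pearson's r of 0.98 and Spearman's rho of 1 on the log2 scale (exact permutation p = 0.00278 for both, adjusted p = 0.00833 over 6 relations), and r was 0.937 without the 2 libraries farthest from the median. In the 10 CON libraries of day 7 the relation had r = 0.814 and rho = 0.83 (permutation, adjusted p = 0.0106 and 0.0086), and r = 0.766 without the 2 farthest libraries. In the 7 ABS libraries of day 3 r was -0.321 and rho -0.321 (exact permutation, adjusted p = 0.718 and 0.677), and r was 0.291 without the 2 farthest. Monocyte and macrophage genes had r = 0.0515 with Ninj1 in the HT libraries (exact permutation, adjusted p = 0.903) and r = 0.917 in the day 7 CON libraries (permutation, adjusted p = 0.00636). In sorted bulk cells a change in the mix of leukocytes and a change of RNA per cell cannot be told apart. HT libraries 2 and 3 had the most neutrophil RNA and also the highest Ninj1. Without them the log2 fold change by edgeR's quasi-likelihood test was 0.98 over CON (adjusted p = 0.0274) and 0.73 over ABS (adjusted p = 0.094). The call against ABS was lost. Since the highest Ninj1 values were taken out, a smaller fold change was fixed beforehand, and no conclusion is drawn from this run.

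**Figure D3:**
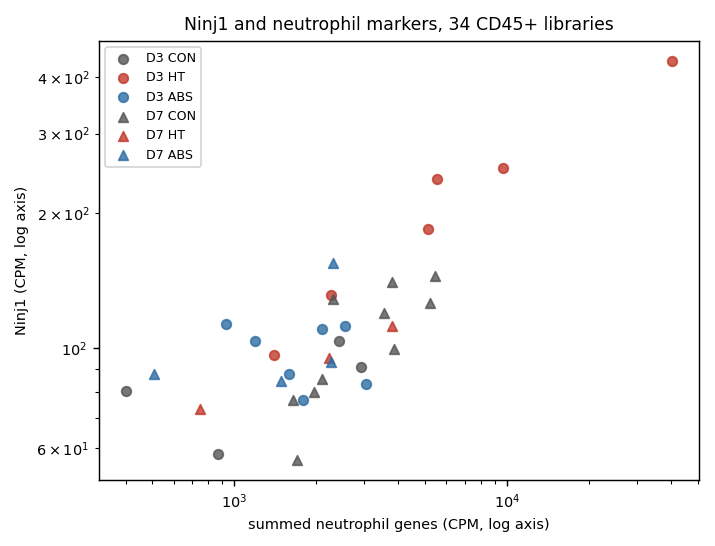
Ninj1 against the summed level of 7 neutrophil genes in each CD45+ library, both in CPM on log axes, by day and group. HT libraries of day 3 run from 96.6 CPM of Ninj1 at 1398 CPM of neutrophil genes to 436 CPM at 40298 CPM.

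On day 7 Ninj1 in CD45+ cells was 73.4, 112 and 95.1 CPM in the HT libraries, within the range of the 10 CON libraries, 56.6 to 145 CPM. The log2 fold change was -0.22 ± 0.24 (SE), and the change of the HT effect from day 3 to day 7 was -1.61 ± 0.41 (adjusted p = 0.0248 in edgeR's quasi-likelihood test), where 2.68% of genes tested passed and Ninj1 was the sole one of these 9. That call was lost without CON replicate 2 of day 3 (adjusted p = 0.0564), without HT replicate 1 of day 7 (0.143) and without HT replicate 3 of day 7 (0.0842). It was also lost with the replicate number as a block (-1.48, adjusted p = 0.0583) and without HT libraries 2 and 3 of day 3 (-1.16, adjusted p = 0.116). Those 2 libraries had the highest Ninj1 of their group, so a smaller change without them was fixed beforehand. In CD45- cells on day 3 the HT effect on Ninj1 was 0.41 ± 0.24 and did not pass (adjusted p = 0.595). This value ranged from 0.19 to 0.59 with a library left out. The difference of the HT effect between the fractions on day 3, 1.03 ± 0.40, did not pass either (adjusted p = 0.184), where 1.92% of genes tested passed, so that an effect particular to CD45+ cells was not shown.

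Other genes of the pathways passed in the same CD45+ comparison, where 7.79% of all genes tested did so in either direction. For HT over CON on day 3, 3 of 15 tested inflammasome genes were higher, namely Nlrp3 (log2 fold change 2.12), Mefv (1.70) and Casp4 (1.17), which encode sensors and the caspase that cleaves gasdermin D after intracellular lipopolysaccharide. The list's median was -0.21, against -0.0096 over all genes tested. Of 21 genes of the TNF receptor complex, with a median of 0.18, 4 were higher, among them Ikbke (1.17), Cflar (1.21), which encodes the caspase-8 regulator cFLIP, and Tnip1 (1.06). Of 9 tested death receptors and ligands, with a median of 0.27, Fas alone passed (1.70). Of 16 mitochondrial apoptosis genes, with a median of -0.0026, 3 passed, the death-promoting Bcl2l11 (1.32) and the death-opposing Bcl2l1 (0.74) and Mcl1 (0.68). Of the T cell markers 2 of 7 were lower in this comparison and, as given above, 4 of 6 neutrophil markers were higher, and their part in these values was not tested. No gene of the interferon or ESCRT lists passed in any comparison within a fraction and day, and of the 9 other gasdermin and ninjurin genes 0 could be tested here.

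**Figure D4:**
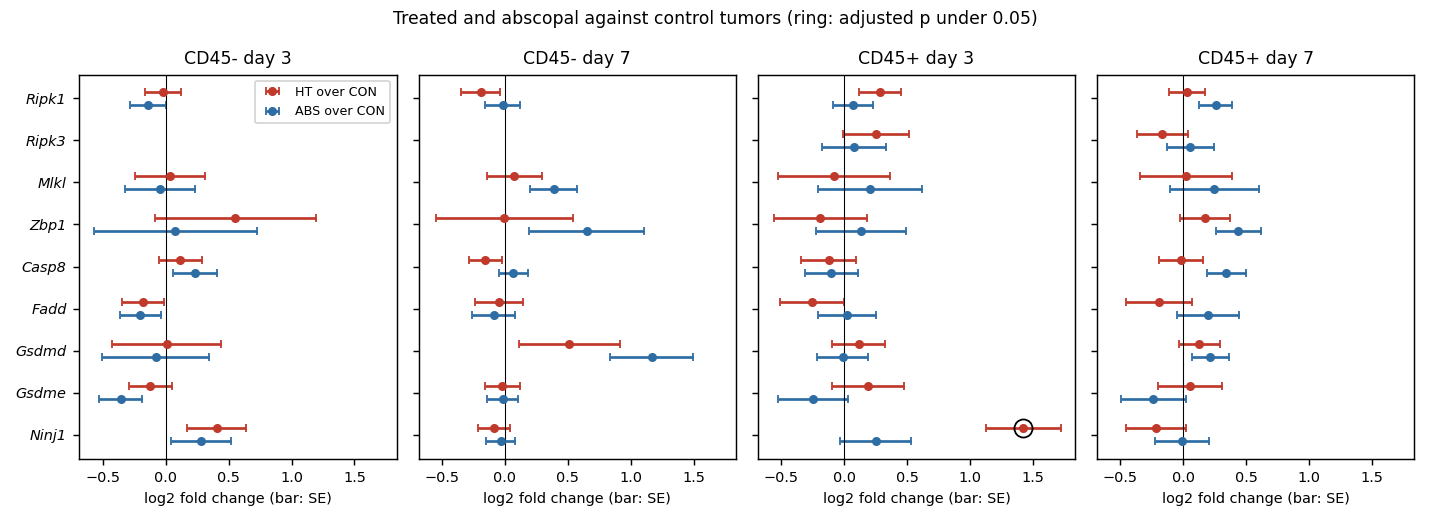
Log2 fold change, with SE bars, of each gene in HT over CON (red) and ABS over CON (blue) in each fraction and day, with a ring where the adjusted p is under 0.05. The ring is on Ninj1 in CD45+ cells on day 3 (1.42), and Ripk3 is not drawn for CD45- cells, where it was too low to test.

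In CD45- cells 8 of the 9 genes could be tested, since Ripk3 was removed as too low, and none passed. On day 3, HT over CON had 0 of 8 called by edgeR and by DESeq2, 0 at an unadjusted p under 0.05, and a background of 0.0916%. ABS over CON had 0 called by either tool, a background of 0%, and 1 gene at an unadjusted p under 0.05, Gsdme, with a log2 fold change of -0.36 ± 0.17 (SE). HT over ABS had 0 called by either tool, a background of 0.147% and 0 at an unadjusted p under 0.05. On day 7, ABS over CON had 0 called by either tool, a background of 0.291%, and 2 at an unadjusted p under 0.05, Gsdmd (1.17 ± 0.33, adjusted p = 0.146) and Mlkl (0.39 ± 0.19, adjusted p = 0.518). Gsdmd was 8.85, 4.93, 4.73 and 6.05 CPM in the 4 ABS libraries and 1.19 to 5.82 CPM, with a median of 1.68, in the 11 CON libraries. The groups overlapped, and 2 of the 4 ABS libraries lay above every CON library. The summed level of 6 fibroblast markers had a median of 807 CPM (62.1 to 2325) in these ABS and 53.4 CPM (14.6 to 674) in these CON libraries. That of 16 interferon-response genes had a median of 448 CPM (367 to 474) in ABS and 316 CPM (153 to 494) in CON. Their part in these values was not tested. Without the filter on low counts Gsdmd passed, with an adjusted p of 0.0496. The change of the ABS effect from day 3 to day 7 passed for 0 of the 8 genes by either tool, with a background of 0.00866%, and for 1 at an unadjusted p under 0.05, Gsdmd (1.24 ± 0.55, adjusted p = 0.68).

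Ripk3 counts in CD45- cells were few in every group. On day 3 the 7 HT libraries had 3, 2, 12, 0, 0, 3 and 3 counts, the 4 CON libraries 0 or 1 and the 7 ABS libraries 0 to 2, so that 23 of the 31 counts of that day were in HT libraries. By CPM 5 of the 7 HT libraries lay above every CON and every ABS library, and the other 2 had no count. Of the HT libraries, the one with 12 counts had the highest summed level of fibroblast markers and the 2 without a count the lowest, with values given below. The part of these cells in the Ripk3 counts was not tested. On day 7 the 4 ABS libraries had 6, 4, 0 and 3 counts and the 11 CON libraries 0 to 4, and 3 of the 4 ABS libraries lay above every CON library by CPM. With the filter on low counts left off, Ripk3 did not pass in HT over CON on day 3 (log2 fold change 2.37 ± 0.98 SE, adjusted p = 0.451 in edgeR's quasi-likelihood test), in HT over ABS on day 3 (1.94 ± 0.73, adjusted p = 0.254) or in ABS over CON on day 7 (1.45 ± 0.69, adjusted p = 0.577).

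Zbp1 and Mlkl varied widely among the CD45- HT libraries of day 3. Zbp1 was 27.5, 5.29, 35.4, 0.633, 8.93, 27.2 and 3.42 CPM in the 7 HT libraries and 9.22 to 12.3 CPM in the 4 CON libraries, so that 3 HT libraries lay above every CON library and 4 lay below. The log2 fold change of HT over CON was 0.56 ± 0.64 (SE) and did not pass (adjusted p = 0.841). With a library left out it ranged from 0.18 to 0.77. Mlkl was 29.3, 17.6, 30.0, 6.64, 19.2, 25.8 and 19.5 CPM in the same libraries, with a log2 fold change of 0.04 ± 0.28. The summed level of 16 interferon-response genes was 522, 210, 637, 131, 378, 579 and 264 CPM in these libraries, and replicates 1, 3 and 6 were highest and replicate 4 lowest in all 3 measures. The fibroblast-marker sum was 5377, 1907, 12689, 48.7, 226, 2214 and 973 CPM in the same order. Here too replicates 1, 3 and 6 were highest and replicate 4 lowest, and the part of these cells in the result was not tested.

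**Figure D5:**
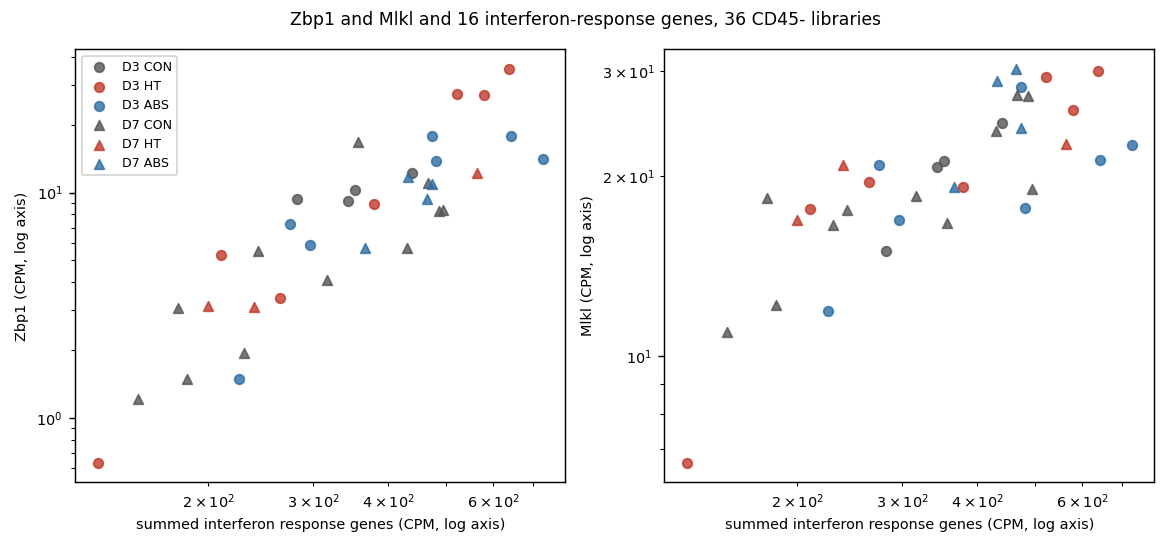
Zbp1 (left) and Mlkl (right) against the summed level of 16 interferon-response genes in each of 36 CD45- libraries, all in CPM on log axes, by day and group. The HT libraries of day 3 span 0.633 to 35.4 CPM of Zbp1 and 131 to 637 CPM of interferon-response genes.

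In CD45+ cells on day 3, the other 8 genes did not pass between HT and CON. Zbp1 was 177, 84.0, 24.6, 91.2, 87.6 and 30.2 CPM in HT and 67.0 to 126 CPM in CON, a log2 fold change of -0.19 ± 0.37 (SE). HT replicates 3 and 6 were the lowest for Zbp1, for Mlkl (2.73 and 1.63 CPM, against 4.13 to 13.5 in CON) and for Casp8 (57.3 and 44.1 CPM, against 88.9 to 108 in CON). The log2 fold changes of HT over CON were -0.08 ± 0.45 for Mlkl and -0.12 ± 0.22 for Casp8. On day 7, ABS over CON had 0 of 9 called by edgeR or DESeq2, with a background of 0%, and 2 at an unadjusted p under 0.05, Zbp1 (0.44 ± 0.18, adjusted p = 0.613) and Casp8 (0.34 ± 0.15, adjusted p = 0.663).

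After group means were removed, the genes most like each member across the libraries of a fraction were ranked by Pearson's correlation of log2 CPM, given as a description since libraries share preparation and depth. In 36 CD45- libraries Mlkl was most like Iigp1 (r = 0.87), Igtp (0.867) and Tapbp (0.862), which encode interferon-inducible GTPases and an antigen-loading protein. Ripk1 was most like Cxcl9 (0.754), an interferon-gamma-induced chemokine, and nearly as much like Cald1 (0.75), which encodes the actin-binding protein caldesmon. For the other members with a mean of at least 10 CPM in CD45- cells, the most alike were Csnk2b for Casp8 (0.756), Mrpl30 for Ninj1 (0.744), Zfp770 for Fadd (0.688) and Racgap1 for Gsdme (0.58). In 34 CD45+ libraries Zbp1 was most like Ly6c2 (0.917), a monocyte marker, Cxcl9 (0.837) and Ifi47 (0.826), Gsdmd was most like Clec4a1 (0.871), Casp8 was most like Pomp (0.844), and Ninj1 was most like Gab2 (0.871), Sqstm1 (0.856) and Plek (0.854). Among the members themselves, Zbp1 and Casp8 had the highest correlation in CD45+ cells (0.733), followed by Casp8 and Gsdmd (0.654), and Ninj1 ran against Zbp1 (-0.577) and Casp8 (-0.53).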

How the data were processed

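The authors trimmed QuantSeq reads with Trim Galore 0.5.0, aligned them with STAR 2.6.0 to GRCm38, collapsed molecular identifiers and deposited whole-number counts per gene from featureCounts, a table for each fraction and day, without normalization. Collapsed counts approximate molecules, and the strand setting is not given in the sources used here. A line without a name in both CD45+ tables, equal to 100% of the column totals, was left out. Of the tables' columns, 0 had no sample. Within groups, replicates were compared by chi-square over genes, whose smallest value per degree of freedom was 1.99. Libraries thus differed by more than counting noise and each was treated as a replicate. This cannot show that they came from separate mice.

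Counts were tested with edgeR 4.0.16 in R 4.3.3 (TMM, filterByExpr with minimum count 10 and minimum total 15, quasi-likelihood test, Benjamini-Hochberg adjustment over all genes tested, threshold 0.05). CON, HT and ABS of a table shared 1 fit, and differences between fractions or days were tested in fits of 6 groups. Marker correlations used two-sided permutation tests, exact below 10 libraries and with 100000 permutations otherwise. The fits were tested on simulated data for HT over CON on day 3 in each fraction and for the difference between fractions on day 3. The change of the HT effect between the days in CD45+ cells was tested in the same way, and the other comparisons were not. The alternatives were DESeq2 1.42.0, library totals, no filter on low counts, the replicate number as a block, a fit of only the groups compared, and each library left out. Leaving out 2 CD45+ HT or 2 CD45+ ABS libraries of day 3 with the highest neutrophil or melanoma markers was added after the data were seen. The HT libraries left out were also the highest for Ninj1. A further run without HT libraries 3 and 6 was made and dropped, because these were picked for low values of the genes described. Coordinates and overlaps are from GENCODE M21 on GRCm38.

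The members, the pathway lists and the tests were chosen with earlier results of these data known. Named genes are the 9 members, up to 3 called genes of each pathway list with the smallest p, and the 3 genes most alike to a member with a mean of at least 10 CPM, on log2 of CPM with a pseudocount of 0.5, of which the highest are named.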

Additional observations from a re-analysis of the deposited data

Results flagged for a closer look

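Ninj1 in CD45+ cells changed differently between the days, with an HT effect over CON whose change from day 3 to day 7 was -1.61 on the log2 scale by the interaction test, as given above with the libraries on which the call rests.

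Of 81 sets of libraries of a gene and group with 4 to 10 libraries, 5 had a library far from the others by Dixon's test, where chance gives about 1 in 20. Ripk3 was 4.56 CPM in CD45- HT replicate 3 of day 3, from 12 counts, against 1.47 CPM in the nearest of the other libraries. Ninj1 was 77.7 CPM in CD45- HT replicate 7 of day 3 against 40.2 CPM in the nearest. Ninj1 was 154.9 CPM in CD45+ ABS replicate 3 of day 7 against 93.3 CPM in the nearest. Gsdmd was 82.8 CPM in CD45+ ABS replicate 1 of day 3, 1 of the 2 libraries of that group with the most melanoma RNA, against 63.5 CPM in the nearest. Fadd was 25.5 CPM in CD45- ABS replicate 6 of day 3 against 16.8 CPM in the nearest.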

How the results depend on the processing

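Of 3468 log2 fold changes of the 9 genes recomputed under the alternatives, 200 changed sign, and 0 of these were called in either fit. The number of the 9 called moved in 4 comparisons. Between the fractions on day 3 it went from 9 to 8 with library totals, where Casp8 was lost. In CD45- cells, ABS over CON on day 7 went from 0 to 1 without the filter on low counts. In CD45+ cells, HT over ABS on day 3 went from 1 to 0 without HT libraries 2 and 3. The change of the HT effect between the days went from 1 to 0 with the replicate block and also without those libraries. It ranged from 0 to 1 with a library left out. HT libraries 2 and 3 had the highest Ninj1 of their group, so smaller Ninj1 fold changes without them were fixed beforehand. With the replicate block the log2 fold change of HT over CON was -0.0625 for Mlkl in CD45- cells on day 3 and 0.0886 for Ninj1 in CD45+ cells on day 7, and without HT libraries 2 and 3 it was 0.0412 for Zbp1 in CD45+ cells on day 3. With a library left out, HT over CON on day 3 ranged from -0.10 to 0.19 for Mlkl in CD45- cells, and in CD45+ cells from -0.37 to 0.17 for Mlkl, from -0.56 to 0.000752 for Zbp1 and from -0.27 to 0.0141 for Casp8. The cause of these changes was not tested. In 0 of 18 pairs of groups did every same-numbered pair correlate over 0.1, and the main fits did not pair libraries. This check cannot exclude pairing. HT of day 3 had 7 CD45- and 6 CD45+ libraries, so equal numbers need not mark the same tumor. CD45+ libraries correlated best with the same-numbered CD45- library in 4 of 4 ABS, 3 of 3 HT and 2 of 10 CON pairs on day 7. On day 3 this held in 4 of 7 ABS, 2 of 6 HT and 2 of 4 CON pairs. Library totals moved the median log2 value of the members by -0.28 on day 3 and -0.22 on day 7 between fractions, and by -0.21 in CD45+ HT over CON on day 3.

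The number of all genes called was far less stable. It ranged from 309 to 1256 around 800 in CD45+ HT over CON on day 3, from 103 to 1022 around 558 in HT over ABS, and from 30 to 628 around 301 for the change between the days. In CD45- cells it ranged from 1 to 312 around 10 in HT over CON on day 3 and from 0 to 398 around 32 in ABS over CON on day 7. Low counts limit Ripk3, Gsdmd and Zbp1 in CD45- cells, with means of 0.636, 3.94 and 9.76 CPM, and Mlkl and Fadd in CD45+ cells, with means of 9.10 and 9.63 CPM.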
